A study of Sus scrofa with 8 samples.

Results

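The genes examined are 8 genes of ductal bicarbonate and chloride secretion: the secretin receptor SCTR, the apical anion channels and transporters CFTR, ANO1 and SLC26A9, the anion exchangers SLC26A6 and SLC4A2, and the basolateral cotransporters SLC4A4 and SLC12A2. They were chosen by name, as the genes of the count table whose symbol equals 1 of these 8, and the rows of a gene were summed. All 8 were found among 30282 genes, and all 8 passed the filter on low counts that left 14475 genes for testing.

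Pancreatic ducts secrete the bicarbonate-rich fluid that carries digestive enzymes to the gut and neutralises gastric acid. Secretin binds its receptor on the basolateral side of the duct cell and raises cyclic AMP (cAMP), which opens the chloride and bicarbonate channel CFTR in the apical membrane. Bicarbonate and chloride enter the cell through basolateral cotransporters and leave through apical channels and exchangers, and water follows.

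Bulk RNA sequencing was performed on porcine pancreatic ductal organoids (PPDO), which are hollow or dense epithelial spheres grown in extracellular matrix from ducts picked by hand from digested pig pancreas. The 4 PPDO lines were Em, from an embryonic pancreas, EPN1 and EPN2, from early postnatal pancreata, and LPN, from a late postnatal pancreas. The donors were German landrace pigs, either wild type or carrying the INS-eGFP reporter transgene, and which line came from which genotype, its exact age and its passage number are not given in the sources used here, although the study describes these cultures as early passage. Each line was cultured for 7 days in complete medium (control) and in differentiation medium (treated), which gave 8 libraries and n = 4 lines per medium.

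Both media contained N2 and B27 without vitamin A, the TGF-beta receptor inhibitor A83-01, the ROCK inhibitor Y-27632, nicotinamide and N-acetylcysteine. Complete medium also contained prostaglandin E2, WNT3a, R-spondin1, noggin, FGF10, EGF and gastrin, and differentiation medium lacked these. The study asked with this comparison whether withdrawing the growth factors changes cell fate, and it tested duct function separately by lumen swelling after forskolin and secretin. The sample titles separate control from treated cultures, whereas their treatment field says endocrine induction for every one of them. Each line is 1 culture per medium. In the medium test without the line as a term, p-values measure the spread between these cultures. In fits with both line and medium as terms, they measure the spread that neither accounts for. Animal and line cannot be told apart. EPN1 and EPN2 share a developmental stage, whereas Em and LPN are each the only line of theirs, so that their stage and line cannot be told apart.

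Library totals were 40553593 to 47910657 estimated counts, with a median of 44321766 in complete and 45946560 in differentiation medium. Levels are CPM, counts scaled to the total of the tested genes and the TMM factor. Where no count was found, up to 3 could have been missed, or 0.0619 to 0.0731 CPM by library; this limit and the intervals below cover counting error only. Levels were compared within a gene and not between genes, because the counts are not per length. The exceptions are the markers named as most of a marker sum, and those shares also reflect transcript length.

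Ductal markers were found in all 8 libraries, and so were basal epithelial markers. All 10 ductal epithelial markers in the table were above 3 counts in every library, and their summed level in complete medium was 10924 CPM in Em, 8156 in EPN1, 8054 in LPN and 6756 in EPN2. In differentiation medium the sum was 14777 CPM in Em, 11002 in EPN1, 7054 in LPN and 3965 in EPN2. The simple epithelial keratin KRT8 was at 2271 to 3466 CPM in complete medium and at 4906, 3608, 1459 and 425 CPM in Em, EPN1, LPN and EPN2 in differentiation medium. It had the highest CPM of the 10 markers, which also reflects transcript length, in 6 of 8 libraries, and in LPN and EPN2 in differentiation medium CDH1, which encodes E-cadherin, had it with 2104 and 2503 CPM. EPN2 in differentiation medium stood apart as the library with the lowest ductal marker sum, and the medium effects on the 8 secretion genes are also given without it. EPN2 was also the line with the highest level of the basal keratin KRT5, at 7653 CPM in complete medium and, in differentiation medium, 11106 CPM, and its 3 basal markers summed to 10072 and 13518 CPM. The 8 acinar markers in the table summed to 0.341 to 0.938 CPM, with CLPS, PNLIP, CPB1 and PTF1A at 0 in all 8 libraries.

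The receptor gene SCTR (ENSSSCG00000029536, chromosome 15, 31707755 to 31782193 in RefSeq's Sscrofa11.1) encodes the G protein-coupled receptor through which secretin raises cAMP. In complete medium SCTR was at 459 CPM in Em, 229 in EPN1, 51.9 in LPN and 2.76 in EPN2. In differentiation medium SCTR was at 919 CPM in Em, 525 in EPN1, 171 in LPN and 0.631 in EPN2. The level was 2.00-fold, 2.29-fold and 3.29-fold higher in differentiation medium in Em, EPN1 and LPN and 4.37-fold lower in EPN2, and the ranges of the 2 media overlapped.

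The EPN2 values of SCTR rest on 122 counts in complete and 27 in differentiation medium, with 95% Poisson intervals of 2.29 to 3.29 and 0.415 to 0.917 CPM that do not meet. Across the 4 lines the medium effect on SCTR was a log2 fold change of 1.12 ± 1.66 (SE, n = 4 per medium), with an edgeR adjusted p of 0.696. Without EPN2 in differentiation medium it was 1.54 ± 1.30 (SE, edgeR adjusted p = 0.481), and without the line EPN2 in both media 1.12 ± 0.88 (0.437). Leaving out Em moved it further, to 0.32 ± 1.78 without Em in differentiation medium (edgeR adjusted p = 0.923) and to 2.11 ± 1.93 without Em in complete medium (0.528). Blocked by line, with all 4 lines, the effect was 0.67 ± 0.63 (SE, edgeR adjusted p = 0.462). An alternative added after the data had been seen, with the line as a block and without the line EPN2, gave 1.30 ± 0.18 (edgeR adjusted p = 0.0181), where 20.4% of all genes passed. EPN2 is the only line in which SCTR was lower, so that leaving it out fixes the direction, and that value is a description of the other 3 lines. Without Em, LPN or EPN1 the same fit gave edgeR adjusted p of 0.630, 0.861 and 0.757. Adjusted p ranged from 0.0181 to 0.923 over the 23 alternatives for this gene and the effect from 0.24 to 2.11. The alternatives are different normalizations, filters, tools, blocks and left-out libraries.

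SCTR was the only 1 of the 8 genes that passed the test between lines (edgeR adjusted p = 0.0456, with the medium as a term), and 5.14% of all genes tested passed it. Its order was Em, EPN1, LPN, EPN2 in both media, with a 167-fold range from the highest to the lowest line in complete and a 1457-fold range in differentiation medium. In contrasts of line pairs, added after the data had been seen and adjusted over all genes and 6 pairs, SCTR in EPN2 was lower than in Em by a log2 difference of -8.40 ± 1.13 (SE, edgeR adjusted p = 0.036) and lower than in EPN1 by -7.51 ± 1.09 (edgeR adjusted p = 0.042). Of all genes tested, 4.50% passed in the first pair and 2.71% in the second. The other pairs did not differ past the threshold, with edgeR adjusted p of 0.579 for Em and EPN1, 0.288 for EPN1 and LPN, 0.168 for Em and LPN and 0.062 for LPN and EPN2. The test between lines missed the threshold for SCTR when fitted without the medium term (edgeR adjusted p = 0.128). With that term it also missed it without Em (edgeR adjusted p = 0.101), without LPN (0.0683) and without EPN1 (0.0841). Without EPN2 it passed (edgeR adjusted p = 0.0281, log2 range 2.78), as 2.59% of all genes did, although no pair of Em, EPN1 and LPN passed in the contrasts above.

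The apical channel gene CFTR (ENSSSCG00000016626, chromosome 18, 28627717 to 28818209) encodes the cAMP-activated anion channel that is mutated in cystic fibrosis. In complete medium CFTR was at 338 CPM in Em, 85.2 in EPN2, 30.6 in EPN1 and 7.68 in LPN. In differentiation medium CFTR was at 128 CPM in Em, 84.6 in EPN1, 25.1 in LPN and 2.97 in EPN2. Em was the highest line in both media, whereas EPN2 went from the second place to the last.

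Between the media the CFTR values went in opposite directions in different lines. It was 2.76-fold higher in differentiation medium in EPN1 and 3.27-fold higher in LPN, but 2.63-fold lower in Em and 28.7-fold lower in EPN2. The within-line log2 differences averaged -0.77 ± 3.06 (SD, n = 4 lines), and the medium effect was -0.94 ± 1.26 (SE, edgeR adjusted p = 0.665). Without EPN2 in differentiation medium the effect was -0.54 ± 1.16 (SE, edgeR adjusted p = 0.802), and without the line Em -0.10 ± 1.23 (0.968). Blocked by line, with all 4 lines, it was -0.47 ± 1.31 (edgeR adjusted p = 0.814). The sign of the medium effect was positive without Em in complete medium (0.57), and, with the line as a block, without the line Em (0.14) or the line EPN2 (0.65). CFTR passed no test between media or lines (edgeR adjusted p = 0.355 for the line), although its highest line was 44.0-fold above its lowest in complete and 43.3-fold in differentiation medium.

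**Figure D1:**
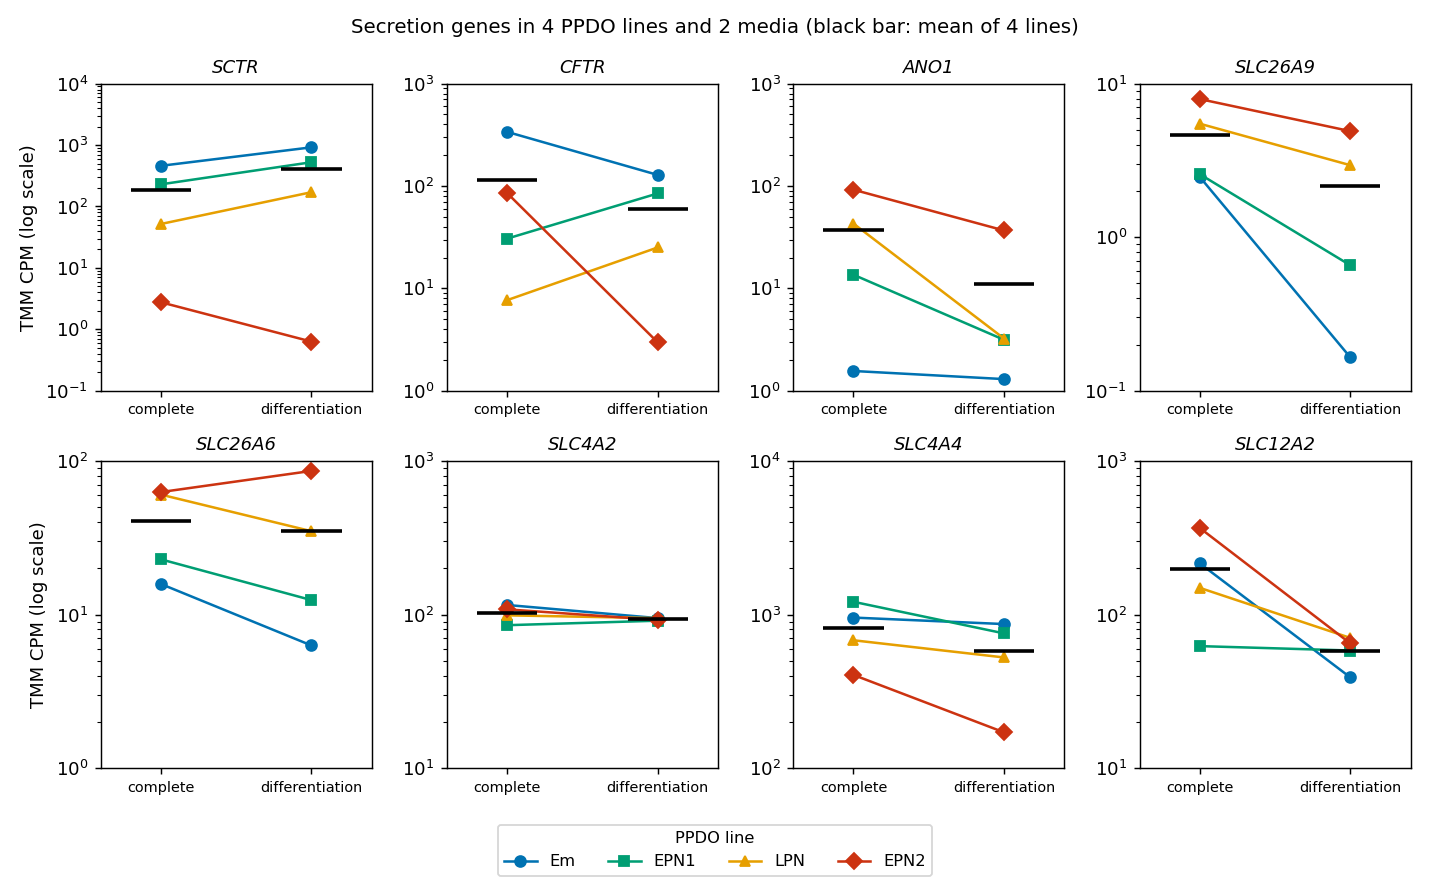
TMM CPM (log axis) of the 8 genes in complete and differentiation medium, with a colour and symbol for each of the 4 PPDO lines and a black bar at the mean of 4 lines. EPN2 is lower in differentiation medium for SCTR (2.76 and 0.631) and CFTR (85.2 and 2.97), ANO1 and SLC12A2 are lower in all 4 lines, and SLC4A2 lies between 85.3 and 115.

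ANO1 (ENSSSCG00000024158, chromosome 2, 3202269 to 3373409) encodes a calcium-activated chloride channel of the apical membrane. In complete medium ANO1 was at 1.56 CPM in Em, 13.6 in EPN1, 42.9 in LPN and 92.1 in EPN2. In differentiation medium ANO1 was at 1.30 CPM in Em, 3.15 in EPN1, 3.24 in LPN and 36.8 in EPN2. It was lower in differentiation medium in 4 of 4 lines, from 1.20-fold in Em, where the 95% Poisson intervals of 1.22 to 1.96 and 0.999 to 1.66 CPM overlap, to 13.3-fold in LPN. The medium effect did not pass in the test without block (log2 fold change -1.76 ± 1.34, SE, edgeR adjusted p = 0.428) or when blocked by line (-1.88 ± 0.58, edgeR adjusted p = 0.0701). Its size depended on EPN2: it was -3.87 ± 1.27 without EPN2 in differentiation medium (SE, edgeR adjusted p = 0.109), -0.80 ± 1.37 without EPN2 in complete medium (0.736) and -2.92 ± 1.12 without the line (0.148). It passed only in DESeq2 with the line as a block (-1.83 ± 0.53, DESeq2 adjusted p = 0.00296), which is the lowest adjusted p among the 23 alternatives.

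The line order of ANO1 was EPN2, LPN, EPN1, Em in both media, the reverse of that of SCTR. The range between lines was 59.0-fold in complete and 28.3-fold in differentiation medium. The test between lines gave an edgeR adjusted p of 0.0629, and it passed without a filter on low counts (edgeR adjusted p = 0.0286, where 4.71% of all genes passed), without the line LPN (0.0393, where 1.54% did) and in DESeq2 (DESeq2 adjusted p = 3.55e-08, where 31.5% did). It reached 0.320 among the 9 alternatives. In the added pair contrasts the widest pair, EPN2 against Em, differed by 5.25 ± 0.89 on the log2 scale (SE, edgeR adjusted p = 0.056 over genes and pairs).

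SLC26A9 (ENSSSCG00000040720, chromosome 9, 66557560 to 66593322) encodes an apical chloride channel and transporter that interacts with CFTR. SLC26A9 was at 2.47 CPM in Em, 2.57 in EPN1, 5.48 in LPN and 7.94 in EPN2 in complete medium. In differentiation medium it was at 0.165 CPM in Em, 0.656 in EPN1, 2.94 in LPN and 4.90 in EPN2. The gene was lower in differentiation medium in 4 of 4 lines, with log2 differences of -3.90 in Em, -1.97 in EPN1, -0.90 in LPN and -0.69 in EPN2. The Em value in differentiation medium rests on 8 counts, with a 95% Poisson interval of 0.0713 to 0.325 CPM, against 114 counts in complete medium.

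The medium effect on SLC26A9 was -1.09 ± 0.92 (log2, SE, edgeR adjusted p = 0.473). The effect was smaller without EPN2 in complete medium (-0.69 ± 1.00, edgeR adjusted p = 0.684) and without Em in differentiation medium, the library with 8 counts (-0.70 ± 0.72, 0.566). Without EPN2 in differentiation medium it was -1.87 ± 0.96 (edgeR adjusted p = 0.254), and blocked by line -1.71 ± 0.57 (edgeR adjusted p = 0.0861). DESeq2 with the line as a block gave -1.73 ± 0.58 (DESeq2 adjusted p = 0.00994), and adjusted p reached 0.690 among the 23 alternatives. The range between lines was 3.21-fold in complete and 29.7-fold in differentiation medium, and the test between lines gave an edgeR adjusted p of 0.156. In DESeq2 the latter passed (DESeq2 adjusted p = 0.00874, beside 31.5% of all genes), and it reached 0.685 among the 9 alternatives.

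The exchanger gene SLC26A6 (ENSSSCG00000011361, chromosome 13, 31319287 to 31330649) encodes an apical chloride and bicarbonate exchanger. SLC26A6 in complete medium was at 15.8 CPM in Em, 22.9 in EPN1, 60.4 in LPN and 62.8 in EPN2. The differentiation medium values were 6.29 CPM in Em, 12.4 in EPN1, 34.9 in LPN and 86.2 in EPN2. SLC26A6 was lower in differentiation medium by 2.51-fold in Em, 1.84-fold in EPN1 and 1.73-fold in LPN, and 1.37-fold higher in EPN2.

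Across the lines the medium effect on SLC26A6 was -0.21 ± 0.81 (log2, SE, edgeR adjusted p = 0.891). Without EPN2 in differentiation medium it was -1.18 ± 0.72 (SE, edgeR adjusted p = 0.335), and without the line EPN2 in both media -0.88 ± 0.77 (0.480). Blocked by line it was -0.64 ± 0.30 (edgeR adjusted p = 0.178). The sign of the effect turned in 5 of the 23 alternatives, the highest being 0.14 without Em in differentiation medium. The added fit with the line as a block and without the line EPN2 gave -0.996 ± 0.162 (edgeR adjusted p = 0.0234), beside 20.4% of all genes. EPN2 is the only line in which SLC26A6 was higher, so that this value too describes the other 3 lines. The same fit without the lines Em, LPN or EPN1 gave edgeR adjusted p of 0.412, 0.391 and 0.399. Adjusted p ranged from 0.0234 to 0.985 over the 23 alternatives. The order of the lines was EPN2, LPN, EPN1, Em in both media. The test between lines gave an edgeR adjusted p of 0.0508, and it passed without a filter on low counts (edgeR adjusted p = 0.0222, beside 4.71% of all genes), without the line EPN2 (0.0295, beside 2.59%) and in DESeq2 (DESeq2 adjusted p = 3.94e-08, beside 31.5%). Adjusted p reached 0.214 among the 9 alternatives. In the pair contrasts added after the data had been seen, SLC26A6 was higher in EPN2 than in Em by 2.94 ± 0.45 on the log2 scale (SE, edgeR adjusted p = 0.047 over genes and pairs), beside the 4.50% of all genes that passed in this pair.

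SLC4A2 (ENSSSCG00000021475, chromosome 18, 6149459 to 6166622) encodes a basolateral chloride and bicarbonate exchanger. Its level in complete medium was 115 CPM in Em, 85.3 in EPN1, 98.9 in LPN and 108 in EPN2. Its level in differentiation medium was 94.8 CPM in Em, 91.3 in EPN1, 94.8 in LPN and 92.3 in EPN2. SLC4A2 had the narrowest ranges of the 8 genes, 1.35-fold between lines in complete and 1.04-fold in differentiation medium, the latter at the percentile 0.159 of the ranges of all genes tested. The medium effect was -0.13 ± 0.11 (log2, SE, edgeR adjusted p = 0.504), or -0.12 ± 0.13 without EPN2 in differentiation medium (0.570). It was -0.04 ± 0.12 without Em in complete medium (edgeR adjusted p = 0.857), and over the 23 alternatives it ranged from -0.19 to -0.04. The test between lines gave an edgeR adjusted p of 0.591.

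The basolateral gene SLC4A4 (ENSSSCG00000008943, chromosome 8, 67768955 to 68177213) encodes a sodium and bicarbonate cotransporter that loads the duct cell with bicarbonate. SLC4A4 in complete medium was at 956 CPM in Em, 1211 in EPN1, 680 in LPN and 405 in EPN2. SLC4A4 in differentiation medium was at 868 CPM in Em, 754 in EPN1, 526 in LPN and 171 in EPN2. It was lower in differentiation medium in 4 of 4 lines, with log2 differences of -0.14 in Em, -0.68 in EPN1, -0.37 in LPN and -1.24 in EPN2, and EPN2 was the lowest line in both media.

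The medium effect on SLC4A4 was -0.49 ± 0.51 (log2, SE, edgeR adjusted p = 0.569). Over the 23 alternatives it ranged from -0.75 to -0.18. Without EPN2 in differentiation medium it was -0.18 ± 0.38 (edgeR adjusted p = 0.793), without EPN1 in complete medium -0.21 ± 0.55 (0.859), and blocked by line -0.61 ± 0.20 (edgeR adjusted p = 0.0871). DESeq2 with the line as a block gave -0.59 ± 0.23 (DESeq2 adjusted p = 0.0299), and adjusted p reached 0.859 among the 23 alternatives. The test between lines gave an edgeR adjusted p of 0.0640. It passed without a filter on low counts (edgeR adjusted p = 0.0362) and in DESeq2 (DESeq2 adjusted p = 1.43e-06), beside 4.71% and 31.5% of all genes, and reached 0.342 among the 9 alternatives.

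SLC12A2 (ENSSSCG00000014255, chromosome 2, 131016430 to 131109307) encodes the basolateral sodium, potassium and chloride cotransporter that loads the cell with chloride. In complete medium it was at 216 CPM in Em, 62.3 in EPN1, 149 in LPN and 367 in EPN2. In differentiation medium it was at 39.0 CPM in Em, 58.3 in EPN1, 70.5 in LPN and 64.9 in EPN2. The complete medium values of Em, LPN and EPN2 lay above every differentiation medium value, and that of EPN1 lay among them.

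SLC12A2 was lower in differentiation medium by 5.53-fold in Em, 5.64-fold in EPN2 and 2.12-fold in LPN. It was 1.07-fold lower in EPN1, where the 95% Poisson intervals of 59.9 to 64.8 and 56.1 to 60.6 CPM overlap. Its mean was 198 ± 128 CPM in complete medium and, in differentiation medium, 58.2 ± 13.7 CPM (SD, n = 4), and the range between lines was 5.88-fold in the former and 1.81-fold in the latter. The medium effect was -1.77 ± 0.49 (log2, SE) and missed the threshold without block (edgeR adjusted p = 0.0671) and when blocked by line (-1.55 ± 0.46, edgeR adjusted p = 0.0670). It passed in DESeq2 without block (-1.75 ± 0.49, DESeq2 adjusted p = 0.00414) and in DESeq2 with the line as a block (DESeq2 adjusted p = 0.00281). In edgeR it passed without EPN1 in complete medium (-2.05, edgeR adjusted p = 0.0493), where 163 of 14783 genes passed. That library is the only one of complete medium that lay among the differentiation medium values, so that leaving it out separates the media. Without EPN2 in differentiation medium the effect was -1.83 ± 0.57 (edgeR adjusted p = 0.100). Adjusted p for SLC12A2 ranged from 0.00281 to 0.228 over the 23 alternatives and the effect from -2.07 to -1.19.

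**Figure D2:**
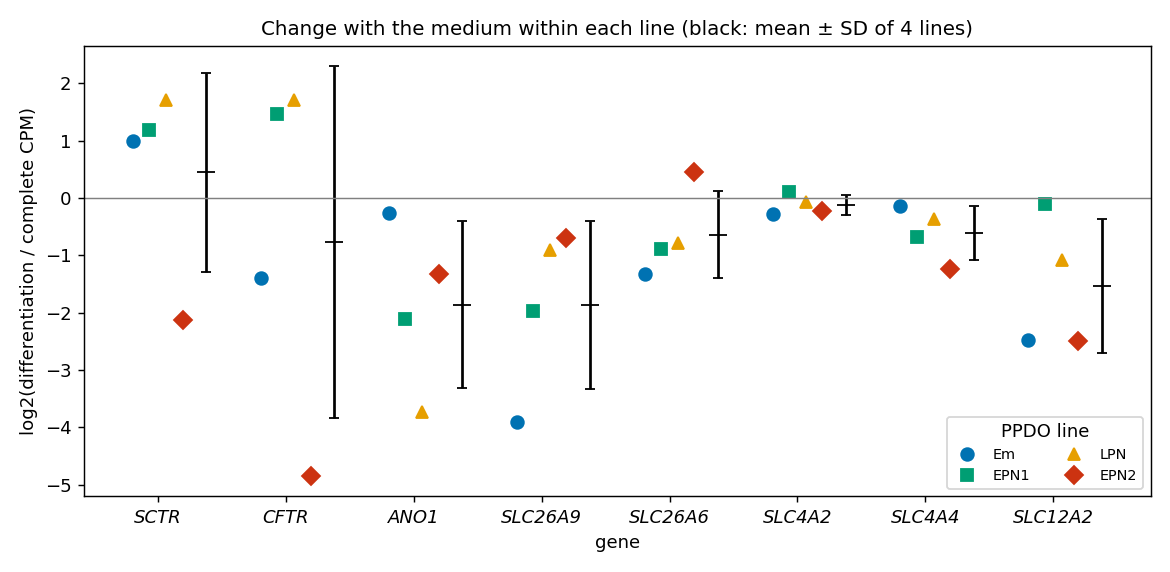
Log2 ratio of differentiation to complete medium CPM within each of the 4 PPDO lines for the 8 genes, with the mean ± SD of 4 lines in black. ANO1, SLC26A9, SLC4A4 and SLC12A2 lie below 0 in all 4 lines, and CFTR spans from -4.84 in EPN2 to 1.71 in LPN.

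Taken over the 8 genes, none passed the medium comparison in edgeR, with a background of 6.97% of all genes tested, and 1 of 8 (SLC12A2) had an unadjusted p under 0.05, against 27.3% of all genes. With the line as a block edgeR again called none, with a background of 19.9%, and 4 of 8 had an unadjusted p under 0.05, against 39.7%. DESeq2 called 1 of 8 (background 19.9%), and DESeq2 with the line as a block called 4 of 8, all lower in differentiation medium, where 37.3% of all genes were called and 18.0% were called lower. The 4 genes were lower in 4 of 4 lines, which 24.2% of all genes tested were. The media did not separate completely for any of the 8 genes, whereas they did for 18.8% of all genes. The median log2 fold change was -0.71 over the 8 genes and 0.01 over all genes tested.

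The whole order of the lines was the same in both media for 4 of 8 genes (SCTR, ANO1, SLC26A9 and SLC26A6), as it was for 15.9% of all genes tested. The highest line was the same for 6 of 8, beside 49.4% of all genes, and the lowest for 6 of 8, beside 47.4%. These counts are descriptions and were not tested. The ranges between lines of SCTR, CFTR and ANO1 in complete medium were at the percentiles 99.3, 98.0 and 98.5 of all genes tested, and the median gene had a log2 range of 0.79 in complete and 0.83 in differentiation medium. Over the 8 libraries, SCTR correlated with SLC4A4 at a Pearson r of 0.89 and with SLC26A6 at -0.87, and SLC26A6 correlated with SLC26A9 at 0.92. These correlations are descriptions over 8 libraries that share 4 lines and 2 media.

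The values of basal and ductal keratins are set beside the line values here. None of the 3 basal markers and 1 of the 10 ductal markers, PDX1 (edgeR adjusted p = 0.0457), passed the test between lines, which 5.14% of all genes passed. The basal keratin KRT5 had the line order of ANO1, SLC26A9 and SLC26A6 in both media (edgeR adjusted p = 0.0560 between lines), with 4.51, 306, 4360 and 7653 CPM in Em, EPN1, LPN and EPN2 in complete medium and 79.4, 1431, 4812 and 11106 CPM with differentiation medium. The 3 basal markers in the table (KRT5, TP63 and S100A2) summed to 1052, 2013, 6865 and 10072 CPM in complete medium and, in differentiation medium, 718, 2536, 7021 and 13518 CPM in the same order of lines. The ductal keratin KRT18 was at 949, 423, 349 and 375 CPM in complete medium and, in differentiation medium, 1398, 831, 247 and 45.2 CPM. In differentiation medium the ductal marker KRT8 was also lower in EPN2 than in LPN (425 and 1459 CPM). CDH1, another ductal marker, was higher in EPN2 than in LPN (2503 and 2104 CPM). The part of the basal and ductal markers in the line values of the secretion genes was not tested. In such bulk libraries fewer cells of a type and less RNA per cell cannot be told apart.

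**Figure D3:**
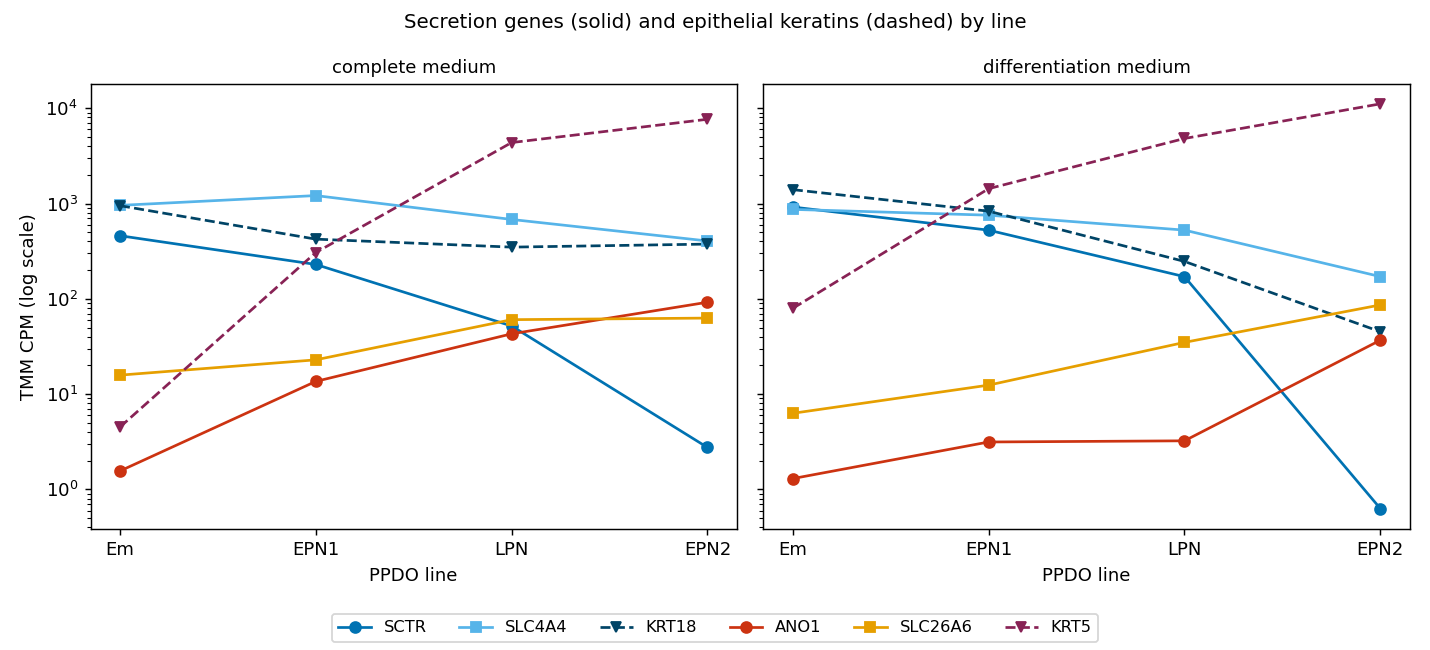
TMM CPM (log axis) of 4 secretion genes (solid) and 2 keratins (dashed) in the 4 PPDO lines, in complete (left) and differentiation (right) medium; the connecting lines only guide the eye. ANO1, SLC26A6 and KRT5 are highest in EPN2 and lowest in Em, SCTR runs the other way, and levels are not compared between genes.

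Ionocytes, rare chloride-transporting epithelial cells of other organs, were considered because they can carry much of the CFTR of an epithelium. Their defining factor FOXI1 had 96, 4, 15 and 0 counts in Em, EPN1, LPN and EPN2 in complete and 99, 134, 82 and 0 in differentiation medium. The 4 ionocyte markers in the table summed to 10.3, 29.7, 9.75 and 7.33 CPM and to 62.8, 44.4, 28.1 and 4.53 CPM, most of it from the proton pump subunit ATP6V1B1. EPN2 had 85.2 CPM of CFTR with no count of FOXI1 in complete medium, and the part of these markers in the CFTR differences was not tested.

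The summed level of 6 proliferation markers was lower in differentiation medium in each line, at 459, 269, 176 and 236 CPM in Em, EPN1, LPN and EPN2 in complete and 331, 167, 106 and 187 CPM in differentiation medium. Of these 6 genes edgeR called none, and with the line as a block it called 4 lower, beside 10.4% of all genes; their part in the medium differences was not tested. Stromal markers summed to 0.689 to 9.26 CPM, with PDGFRB at up to 4.85 CPM (Em, complete medium) and COL3A1 at up to 6.07 CPM (EPN1, differentiation medium). PDGFRB was not called in edgeR (adjusted p = 0.121) and was called lower with the line as a block (edgeR adjusted p = 0.0160), and its part in the medium differences was not tested. Endothelial markers summed to 15.7 to 44.0 CPM, nearly all of it from KDR and PECAM1, with CDH5 at 3 counts or fewer throughout. The endocrine sum was 0.240 to 2.43 CPM, except for 21.4 CPM in Em in differentiation medium, mostly GCG, with NEUROD1 and PPY at 3 counts or fewer. The immune sum of 1029 to 1846 CPM was almost all CD79A, at 1022 to 1804 CPM, with CD3E at 3 counts or fewer. This sum thus reflects CD79A and not the set of immune markers, and the source of the CD79A counts was not tested.

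The wider pathway was examined in 7 lists with 145 genes, of which 131 were in the table under their listed symbols and 104 were tested. In differentiation medium 2 genes rose and 5 fell, which is 6.73% of those tested beside 6.97% of all genes, of which 2.87% rose and 4.10% fell. The median log2 fold change over the 104 genes was 0.19.

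Of the 13 tested receptors for secretory agonists, none rose and 2 fell. P2RY2, the purinergic receptor through which luminal ATP raises calcium in duct cells, was at 55.9, 49.8, 54.6 and 74.6 CPM in Em, EPN1, LPN and EPN2 in complete and at 7.84, 7.13, 9.21 and 3.41 CPM in differentiation medium. P2RY2 was thus lower in 4 of 4 lines with no overlap, with a log2 fold change of -3.09 ± 0.32 (SE, edgeR adjusted p = 0.00681). The call was lost without the line LPN (edgeR adjusted p = 0.0785) and without the line EPN1 (0.134), where 5 and 0 of all genes were called. The inhibitory adenosine receptor gene ADORA1 fell from 51, 33, 35 and 48 counts to 4, 1, 7 and 1 (edgeR adjusted p = 0.0189). Its call was lost without the lines Em, LPN or EPN1 and without 3 single libraries, up to 0.159.

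Among the 14 tested regulators of the transporters, 1 fell and none rose. It was OXSR1, a kinase that activates the cotransporter encoded by SLC12A2, at 140 ± 51.9 CPM in complete medium and, in differentiation medium, 61.3 ± 2.42 CPM (SD, n = 4). Its log2 fold change was -1.19 ± 0.26 (SE, edgeR adjusted p = 0.0384), and it was lower in 4 of 4 lines. The lines spread less in differentiation medium, at 59.3 to 64.7 CPM, than in complete medium, at 78.1 to 205 CPM. The call was lost when any library other than EPN2 in complete medium was left out, with adjusted p of up to 0.223 over the alternatives. With the line as a block, SLC9A3R1, SLC9A3R2 and GOPC, which encode scaffold proteins that bind CFTR, were also called, all higher in differentiation medium. These calls were lost without the line LPN or the line EPN1, where the block fit called no pathway gene.

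Of 19 other chloride channels tested, 1 rose, TTYH3 of the tweety family, at 177 ± 15.7 CPM in complete medium and, in differentiation medium, 341 ± 77.4 CPM (mean ± SD of 4 lines). Its log2 fold change was 0.95 ± 0.18 (SE, edgeR adjusted p = 0.0278). CLCN3 and CLCN7, which encode chloride and proton exchangers of endosomes and lysosomes, were called higher with the line as a block. Their calls too were lost without the line LPN or EPN1. Of 12 sodium and proton transport genes tested, 1 rose and 2 fell. SLC9A4, a sodium and proton exchanger, was at 0.585, 0.697, 0.707 and 0.927 CPM in Em, EPN1, LPN and EPN2 in complete and at 1.22, 5.05, 5.91 and 10.9 CPM in differentiation medium (2.98 ± 0.61, SE, edgeR adjusted p = 0.0330). ATP1B2, a beta subunit of the sodium pump, fell from 1.95 ± 0.778 to 0.493 ± 0.194 CPM (edgeR adjusted p = 0.0423), and FXYD1, a regulator of the pump, from 24, 71, 64 and 15 counts to 3, 5, 2 and 10 (edgeR adjusted p = 0.0457, or 0.0533 when blocked by line). The calls of TTYH3, SLC9A4, ATP1B2 and FXYD1 were each lost without the line LPN or EPN1, with edgeR adjusted p of 0.224 to 0.273 without EPN1, and also without 4, 5, 8 and 6 of the 8 single libraries. Without a filter on low counts the calls of ATP1B2 (edgeR adjusted p = 0.0782) and FXYD1 (0.0739) were lost.

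None of the 22 tested genes of cAMP signalling, 12 other bicarbonate and chloride transporters and 12 transcription factors with a role in CFTR expression passed. The cAMP genes named for their CPM, which also reflects transcript length, were GNAS, the stimulatory G protein subunit downstream of the secretin receptor, at 683 ± 85.5 and 558 ± 35.8 CPM (edgeR adjusted p = 0.197), and PRKAR1A, a regulatory subunit of protein kinase A, at 304 ± 39.7 and 265 ± 28.7 CPM (0.398). Of the transporters, SLC12A7, a potassium and chloride cotransporter, was at 136 ± 21.0 and 109 ± 37.4 CPM (edgeR adjusted p = 0.450) and the sulfate transporter SLC26A2 at 96.7 ± 32.5 and 170 ± 59.5 CPM (0.147). The epithelial factors EHF and KLF5 were at 676 ± 145 and 934 ± 258 CPM (edgeR adjusted p = 0.256) and at 454 ± 65.3 and 443 ± 54.0 CPM (0.910). Values are in complete and then in differentiation medium, mean ± SD of 4 lines. With the line as a block, 16 of the 104 genes were called, 10 higher and 6 lower, which is 15.4% beside 19.9% of all genes (9.48% higher and 10.4% lower). Besides those named above these were CREB1, ONECUT1 and SCNN1A, which were higher, and AKAP1 and SLC26A11, which were lower. The block fit called no pathway gene without the line LPN or without the line EPN1, where 22 and 8 of all genes were called.

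**Figure D4:**
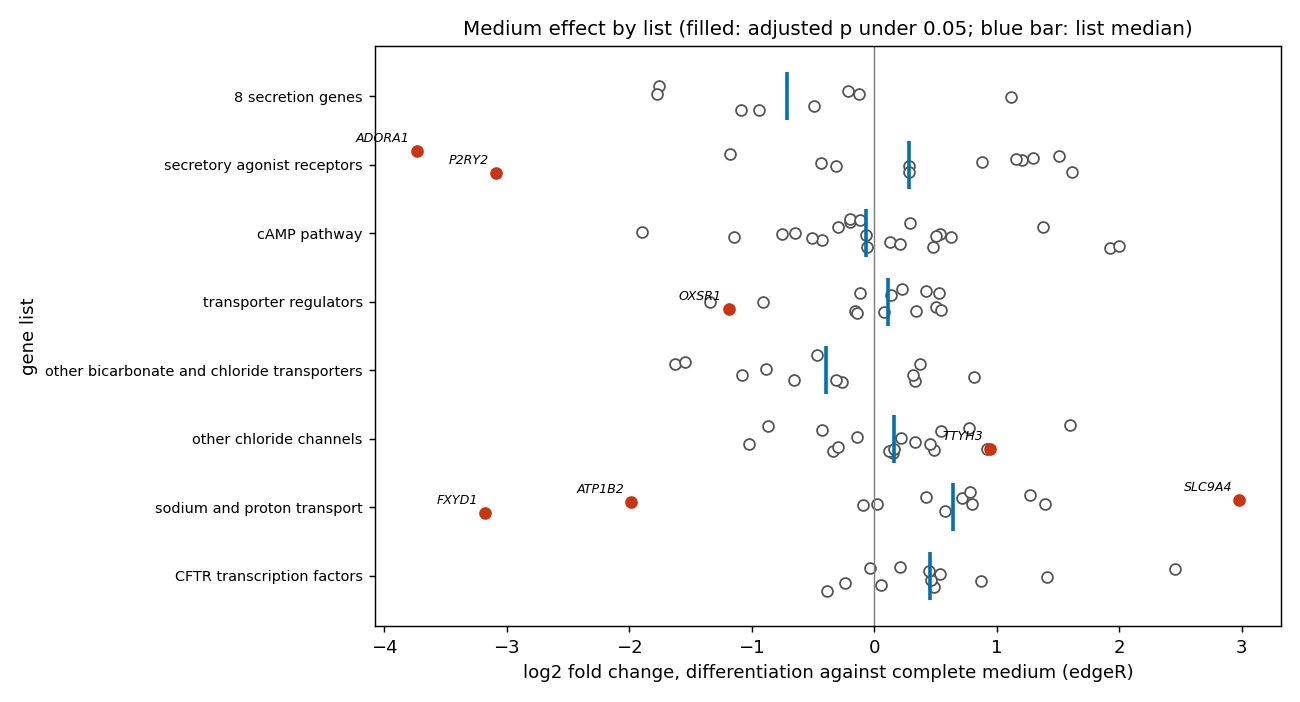
Log2 fold change of differentiation against complete medium (edgeR) for each tested gene, 1 point per gene, in the 8 secretion genes and 7 pathway lists, with called genes filled and a blue bar at each list's median. ADORA1, P2RY2, OXSR1, ATP1B2 and FXYD1 are filled on the negative side and TTYH3 and SLC9A4 on the positive side, and none of the 8 secretion genes is filled.

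The genes whose levels were most like those of CFTR were found among 12322 genes with a symbol by Pearson correlation of log2 CPM over 8 libraries. The closest was KCNE3 (r = 0.982, Spearman rho = 1.000), a beta subunit of potassium channels, followed by PLEKHS1 (r = 0.976), glutathione reductase GSR (0.970), SMAP2 (0.968) and the tyrosine kinase FRK (0.962). KCNE3 was at 63.8, 24.8, 12.9 and 27.9 CPM in Em, EPN1, LPN and EPN2 in complete and at 34.9, 27.3, 20.02 and 7.87 CPM in differentiation medium. KCNE3 was thus higher in differentiation medium in EPN1 and LPN and lower in Em and EPN2, as CFTR was. The 8 libraries share lines and media, and the 5 genes were picked for this likeness.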

How the data were processed

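The authors sequenced poly(A) RNA as paired reads of 100 bases. Per the labels and the study's methods, reads were quantified with salmon in an nf-core pipeline (3.14, Nextflow 23.10.1) against a custom annotated pig genome; the submitters' processing notes name Sscrofa11.1 and GRCh38. The authors deposited estimated counts per gene, and the methods name gene length scaled counts, which could not be told from the values, of which 88.4% of those above 0 were whole within 0.001. Length scaling leaves comparisons within a gene valid but makes the counts not exactly reads.

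The 56060 rows (26046 with -iso, 25770 with -ext, the latter 2.58% of counts) were summed per gene and rounded, and 8 reporter rows (0.00142% of counts) were left out. This left 30282 genes, 5612 of them with no count. No column was unused and no 2 columns were identical. Each of the 8 genes had 1 identifier and 2 rows. Columns name the lines and not the replicate numbers of the titles. Coordinates are those of RefSeq for Sscrofa11.1, matched by symbol, and no read was placed by them.

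Counts were fitted in R 4.3.3 with edgeR 4.0.16 (limma 3.58.1): TMM factors of 0.935 to 1.064, default expression filter, quasi-likelihood test, the medium as the only term, and Benjamini-Hochberg adjustment over 14475 genes with a threshold of 0.05. The test between lines had the medium as a term. DESeq2 1.42.0, the line as a block, other filters and left-out libraries were alternatives. CPM in the text were computed here from the counts. The code was tested on simulated data. Tables and plots used pandas 2.3.3, numpy 2.4.6 and matplotlib 3.10.9.

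The lines pair the libraries by design. With each library taken as its deviation from the medium mean, libraries of the same line correlated at 0.400 to 0.657 (4 pairs) and those of different lines at -0.479 to 0.242 (12 pairs). The deviations within a medium sum to 0, so that part of this contrast is built in.

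The 8 genes and all lists were chosen with earlier results of these data known. All 8 are given in each library. From each pathway list the called genes are named, up to 6 by adjusted p, or where none was called the 2 with the highest mean level, with the 5 genes most like CFTR. Genes named because they passed only with the block or between lines were picked after their values were seen.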

Additional observations from a re-analysis of the deposited data

Results flagged for a closer look

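ANO1 in EPN2 in differentiation medium, at 36.8 CPM, lay above the 1.30 to 3.24 CPM of the other 3 lines. On CPM without logarithm the gap was 0.945 of the whole range, above Dixon's critical value for 4 samples. No other value stood out in this way in 16 groups of 4 libraries. For normally distributed values chance gives about 1 such value per 20 groups, so that 1 in 16 groups is near what chance gives. The critical value also assumes normally distributed values, and the ratio was not taken on log2 CPM, the scale of the medium effects. It therefore cannot decide whether this ANO1 value is an outlier on that scale.

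SCTR moved in opposite directions in different lines, with a log2 difference of 1.72 in LPN and -2.13 in EPN2. The same was seen for CFTR, with 1.71 in LPN and -4.84 in EPN2. Differences of more than 1 in both directions were looked for. Each line had 1 culture per medium, and the difference between lines in the medium effect was not tested.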

How the results depend on the processing

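The number of the 8 genes that passed between media, 0 in edgeR, was 1 in DESeq2 and 4 in DESeq2 with the line as a block. It was 0 to 2 with a library or line left out (the 2 in a block fit added after seeing the data), and 0 with other size factors, other filters, the line as a block in edgeR or without -ext rows. The number of pathway genes was 7 in edgeR, 14 in DESeq2, 16 with the line as a replicate block, 29 in DESeq2 with the block, 5 without a filter on low counts, and 0 to 23 with a library or line left out. The number that passed between lines was 1, and 4 without a filter on low counts, 0 without the medium term (no replicate block), 5 in DESeq2 and 0 to 2 with a line left out. Over all genes, 1009 passed between media in edgeR, 506 without a filter, 2884 in DESeq2, 2884 with the block and 5393 in DESeq2 with the block, and 744 passed between lines and 27 without the medium term. With 1 library left out, the number between media ran from 70 (without EPN1 in differentiation medium) to 1199 (without EPN2 in complete medium). With a line left out, it ran from 0 (EPN1) to 1207 (EPN2) without block. Between lines the number ran from 104 (without Em) to 379 (without EPN2). The sign turned for CFTR (0.57, 0.14 and 0.65, given above; range -1.62 to 0.65) and for SLC26A6, whose medium effect of -0.21 ranged from -1.18 to 0.14 and was 0.04 without LPN in complete, 0.08 without EPN2 in complete, 0.14 without Em in differentiation medium, 0.07 without EPN1 in differentiation medium and 0.05 without the line LPN. The signs of the other 6 genes and the 7 called pathway genes were the same under all 23 alternatives each. The causes were not tested. The replicate block changed the medium calls given above and no other among the 8 secretion genes and the 7 called pathway genes in edgeR. Depth limits SLC26A9 in Em and SCTR in EPN2, with 8 and 27 counts.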

Other observations

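Of the 104 tested genes of the secretory pathway, 8 passed the test between lines (7.69%, beside 5.14% of all genes). The 2 shares are close and were not compared by a test. These genes were picked after their values were seen, and their calls were not checked without a line or without the medium term. ONECUT1, a transcription factor of the developing pancreatic duct, was at 27.9, 1.78, 0.366 and 0.0678 CPM in Em, EPN1, LPN and EPN2 in complete and at 140, 19.0, 5.41 and 0.117 CPM in differentiation medium (edgeR adjusted p between lines = 0.0129), the line order of SCTR. CDX2, an intestinal transcription factor, was at 3.86 to 21.95 CPM in Em, EPN1 and LPN and at 0.113 and 0.0467 CPM in EPN2 (edgeR adjusted p = 0.0266).

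Of the cAMP genes, the phosphodiesterase genes PDE3A (edgeR adjusted p = 0.0372) and PDE3B (0.0387) and the adenylyl cyclase gene ADCY2 (0.0347) were lowest in EPN2 in both media. PDE3B was at 10.6, 21.5, 13.5 and 0.972 CPM in Em, EPN1, LPN and EPN2 in complete medium and at 17.0, 17.6, 5.59 and 0.537 CPM in differentiation medium. The purinergic receptor gene P2RY1 was highest in EPN2, at 17.0 and 45.6 CPM beside 2.50 to 14.5 CPM in the other lines (edgeR adjusted p = 0.0448). The others were the scaffold gene SHANK2 (0.0286) and ANO5 (0.0450).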
